A study of Mus musculus with 3 samples.

Results

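The genes described here encode the enzymes that remove superoxide, peroxides and reactive electrophiles, together with the proteins that make, recycle and control them. They were taken by symbol as superoxide dismutases, catalase, glutathione peroxidases, peroxiredoxins, sulfiredoxin, thioredoxins, glutaredoxins, glutathione transferases, the enzymes of glutathione synthesis and reduction, and Nfe2l2, Keap1 and Nqo1. This gave 74 of the 24411 genes tabulated, and each of the 74 matched exactly 1 gene of the GENCODE M21 annotation of GRCm38. The RNA came from primary microglia of adult C57BL/6J mice, aged 6 to 8 weeks in the labels. The mice carried a floxed Mir137 (Mir137loxP/loxP) and Tmem119-CreERT2, a tamoxifen-inducible Cre recombinase driven from a microglial gene, and the genotype is labelled cKO. Tamoxifen was given daily for 7 days to mice 7 to 8 weeks old. All 3 libraries, replicates 1 to 3, were also labelled with a Pu.1 inhibitor, whose name, dose and route are not given in the sources used here. Neither cKO cells lacking the inhibitor nor the Mir137+/+ controls (cWT) were analysed here. Every value below is therefore a level in the combined condition, and no effect of either the deletion or the inhibitor was estimated. Whether each replicate was a different animal is not stated, although the study's design names 4 mice, so spread and p-values cover only these samples and may be technical.

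Cells convert superoxide to hydrogen peroxide with superoxide dismutases and then reduce the peroxide with catalase, glutathione peroxidases or peroxiredoxins. Glutathione peroxidases draw electrons from glutathione, which glutathione reductase regenerates, and peroxiredoxins draw them from thioredoxin, which thioredoxin reductases regenerate. The transcription factor NRF2, encoded by Nfe2l2, induces many of these genes and is held in check by KEAP1. In brain macrophages the systems are known for limiting damage from the oxidants that the cells themselves release during phagocytosis.

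Several members owe their chemistry to selenocysteine, an amino acid encoded by TGA, which otherwise ends translation. The coding sequences are shown because this codon divides the glutathione peroxidase family, whose 3 most abundant members read TGA there. Each line gives 33 bases of the longest annotated coding sequence, from GENCODE M21 transcripts, with the selenocysteine codon in capitals.
Gpx1: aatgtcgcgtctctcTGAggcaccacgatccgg
Gpx2: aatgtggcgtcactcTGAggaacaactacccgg
Gpx3: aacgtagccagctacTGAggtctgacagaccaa
Gpx4: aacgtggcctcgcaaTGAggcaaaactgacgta
The codon was number 47 of 201 in Gpx1 (GRCm38, chr9:108339451-108339453, plus strand), 73 of 226 in Gpx3 (chr11:54907256-54907258, plus strand) and 129 of 253 in the longest form of Gpx4 (chr10:80054737-80054739, plus strand). In the 4 paralogs below, the codon that aligned with the selenocysteine codon of Gpx1 is in capitals, and it reads TGC or TGT, both of which encode cysteine.
Gpx5: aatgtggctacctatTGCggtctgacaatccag
Gpx6: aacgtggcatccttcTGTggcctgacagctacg
Gpx7: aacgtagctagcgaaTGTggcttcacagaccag
Gpx8: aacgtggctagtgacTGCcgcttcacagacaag
In the thioredoxin reductases the TGA was the penultimate coding codon, and the lines run to the stop codon.
Txnrd1: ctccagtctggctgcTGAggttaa
Txnrd2: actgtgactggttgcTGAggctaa
Txnrd3: actcagaaaggctgcTGAggctag
All 3 reductases carried a cysteine codon, tgc, immediately before the TGA, and the pair forms the redox centre of these enzymes.

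Levels are given as FPKM, reads scaled to effective gene length and library depth, so that genes of different length can be set side by side, as mean ± SD over n = 3 libraries. Detection required 1 FPKM or more in all 3 libraries. Of the 74 genes 59 were detected (79.7%), against 47.8% of all genes tabulated. The median of log2(FPKM + 1) over all 74 was 4.04 ± 0.04 (SD, n = 3), and over all genes it was 0.95 ± 0.02. Much of that gap came from undetected genes: over detected genes only, the median was 4.68 for the members and 3.82 for all genes. Mean levels reached 100 FPKM in 7 members and 10 FPKM in 43. Together the members took 0.653 ± 0.011% of all FPKM and 0.516 ± 0.013% of all counts (SD, n = 3). The libraries held 17180404, 15710750 and 16356125 estimated counts. A count of 0, found in every library for 8 members, allows up to 0.175 to 0.191 CPM, counts scaled to library depth alone, for counting error only.

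**Figure D1:**
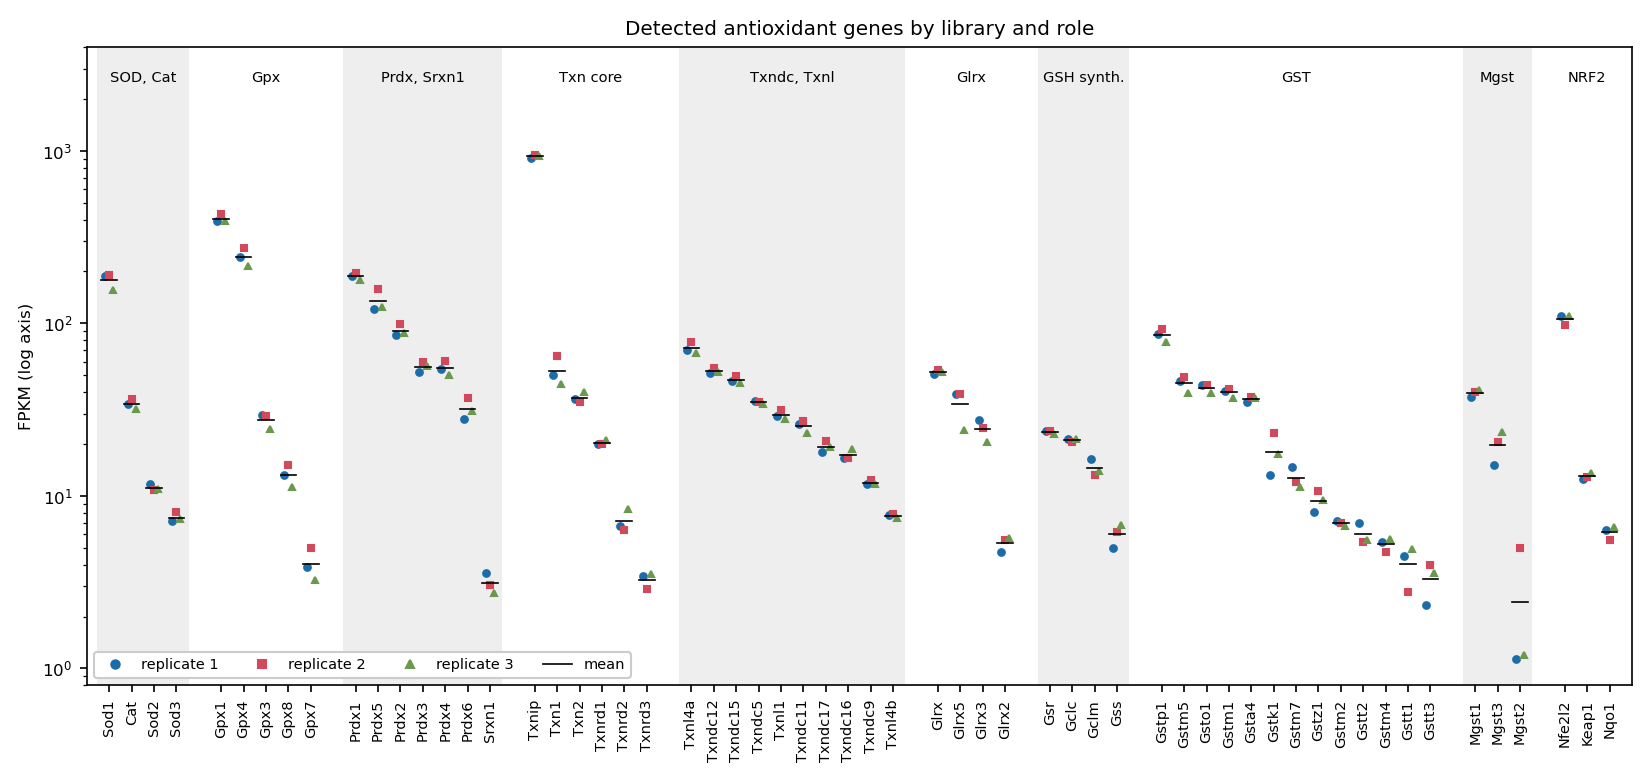
FPKM on a log axis of the 59 detected members in each of the 3 libraries (symbols) with the mean (bar), ordered by role. Txnip stands highest at 932 FPKM, followed by Gpx1, Gpx4, Prdx1 and Sod1, and most members repeat closely between libraries except Mgst2, which is 4.99 FPKM in replicate 2 and near 1 in the others.

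Among the enzymes that act first on superoxide, Sod1 was far above Sod2 and Sod3. Sod1, the copper-zinc dismutase of the cytosol (chromosome 16, 90220754 to 90226329), was at 188, 192 and 157 FPKM in replicates 1, 2 and 3, a mean of 179 ± 19.3 (SD, n = 3). Sod2, the manganese dismutase of mitochondria, was at 11.71, 10.80 and 11.01 FPKM, and Sod3, the secreted dismutase, at 7.12, 8.02 and 7.31. The 3 genes did not overlap in any library. Cat, the peroxisomal catalase, was at 34.0, 36.3 and 31.7 FPKM, between Sod1 and Sod2. Within each library Sod1 exceeded Sod2 by 16 ± 1.8 times in FPKM (SD, n = 3). That ratio leans on length, since the effective length was 367 nt for Sod1 and 3543 nt for Sod2. In CPM, which has no length term, it was 1.66, and Sod1 was 0.848 times Cat.

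The 3 highest glutathione peroxidases, Gpx1, Gpx4 and Gpx3, were selenocysteine members, but the remaining one, Gpx2, was at 0, below the cysteine members Gpx8 and Gpx7. Gpx1, the main cytosolic enzyme for hydrogen peroxide (chromosome 9, 108338903 to 108340343), was at 392, 429 and 391 FPKM, mean 404 ± 21.8, rank 186 of all genes. Gpx4, the enzyme that reduces lipid hydroperoxides in membranes and holds back ferroptosis, was at 244, 273 and 216 FPKM, mean 244 ± 28.4, and was below Gpx1 in every library. Of the transcript sequence of Gpx4, 34.7% of 50-base words also occurred in another gene, chiefly the processed pseudogene Gpx4-ps2, although its estimated counts were whole numbers. Gpx3, the secreted form, was at 29.5, 29.0 and 24.3 FPKM. The remaining selenocysteine member, Gpx2, known from the gut epithelium, had no count in any library.

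Of the cysteine members, Gpx8 was at 13.29, 15.10 and 11.30 FPKM and Gpx7 at 3.86, 4.99 and 3.27; both encode peroxidases of the endoplasmic reticulum. Gpx5 had 0, 0 and 1 estimated counts and Gpx6 0, 6 and 4, and neither was detected. The 4 selenocysteine genes summed to 676 ± 50.8 FPKM and the 4 cysteine genes to 17.5 ± 2.82 (SD, n = 3). The sums stood in a ratio of 38.8, 35.7 and 42.4 in replicates 1, 2 and 3, and nearly all of the first sum came from Gpx1 and Gpx4. The pseudogene Gpx2-ps1 had 4 counts in replicate 1 and none in the others.

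Of 7 peroxiredoxin genes 6 were detected, Prdx1 to Prdx6, and as a role group with sulfiredoxin they had the highest median level of the 10 role groups, 5.82 ± 0.10 in log2(FPKM + 1) (SD, n = 3). Prdx1, a cytosolic peroxidase also known as a chaperone, was at 189, 197 and 177 FPKM, mean 188 ± 9.93. Prdx5, found in mitochondria, peroxisomes and cytosol, was at 121, 157 and 124 FPKM, and Prdx2, the cytosolic enzyme abundant in red cells, at 85.4, 98.8 and 88.1. Prdx5 was highest in replicate 2, by a margin larger than the gap between the other libraries. Prdx3, the mitochondrial enzyme, at 56.0 ± 3.64 FPKM, and Prdx4, the enzyme of the endoplasmic reticulum, at 55.3 ± 5.11, overlapped between libraries and were not separated. Prdx6, which uses glutathione and also acts on phospholipids, was at 27.8, 36.8 and 31.2 FPKM, and its paralog Prdx6b had no count in any library.

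Prdx2 needs a qualification: its annotated exons overlap those of Junb on the opposite strand, and Junb was at 930.3 ± 25.9 FPKM. The strand setting of the counting is unknown here, so reads from the overlap could not be assigned to one or the other. Prdx5 overlaps Trmt112 in the same way, at 53.4 ± 3.5 FPKM. Erythroid markers, relevant to Prdx2, were uneven: 3 of 7 were detected, with a summed level of 272, 320 and 238 FPKM, mostly alpha globin, which is above the level of Prdx2 in every library. Their part in the Prdx2 level was not tested. Srxn1, the sulfiredoxin that rescues overoxidised peroxiredoxins and a well known NRF2 target, was at 3.59, 3.05 and 2.75 FPKM, the lowest of the detected genes in its group.

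Txnip was the most abundant member. It encodes the thioredoxin-interacting protein, which binds and inhibits thioredoxin, restrains glucose uptake and is transcribed in response to glucose. Txnip (chromosome 3, 96557957 to 96561883) was at 910, 947 and 939 FPKM, mean 932 ± 19.3, rank 72 of all genes in FPKM and rank 31 in CPM. It held 26.4 ± 1.1% of the members' summed FPKM and 45.5 ± 0.925% of their counts (SD, n = 3). Its counts were not whole (39385.31, 37428.99 and 38694.69), while none of its 50-base words occurred in another annotated transcript. An annotated antisense gene, Gm15441, overlaps its exons and was at 0.407 ± 0.085 FPKM. Without Txnip the members took 0.481 ± 0.015% of FPKM and 0.281 ± 0.011% of counts.

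The transcripts of both thioredoxins were well below that of Txnip. Txn1, the cytosolic thioredoxin, was at 49.9, 64.3 and 44.4 FPKM, mean 52.9 ± 10.3, and Txn2, the mitochondrial form, at 36.66, 35.03 and 39.86, mean 37.2 ± 2.46. In FPKM Txn1 was above Txn2 in every library, but by only 1.11 times in replicate 3 against 1.84 in replicate 2. In CPM the order was reversed in replicate 3, with 34.2 for Txn1 and 39.9 for Txn2. Of the selenocysteine reductases, Txnrd1 of the cytosol was at 20.08, 20.06 and 21 FPKM, Txnrd2 of mitochondria at 6.66, 6.32 and 8.35, and Txnrd3, known from testis and carrying a glutaredoxin domain, at 3.44, 2.87 and 3.52. The order Txnrd1, Txnrd2, Txnrd3 held without overlap.

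Of the 12 genes named as thioredoxin-like or thioredoxin-domain proteins, 10 were detected. The highest was Txnl4a, whose product is a component of the spliceosome and not an antioxidant enzyme, at 70.3, 78.1 and 67.7 FPKM. Txndc12, an oxidoreductase of the endoplasmic reticulum, was at 52.8 ± 1.9 FPKM, and Txndc15, a protein linked to ciliary function, at 47.1 ± 2.19. Txndc5, a disulfide isomerase of the same compartment, was at 34.9 ± 0.728 FPKM with replicates of 35.63, 35.01 and 34.18. The lowest detected was Txnl4b at 7.67 ± 0.216 FPKM. Txndc2 and Txndc8, thioredoxins of the sperm lineage, had no count in any library.

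All 4 glutaredoxins were detected. Glrx, the cytosolic enzyme that removes glutathione from protein thiols, was steady at 51.2, 54.0 and 52.1 FPKM. Glrx5, which serves mitochondrial iron-sulfur cluster assembly, was at 38.9, 39.0 and 24.2 FPKM, so replicate 3 stood below the other libraries. Glrx3, a cytosolic iron-sulfur protein, was at 27.6, 24.7 and 20.6 FPKM, overlapped Glrx5, and had counts that were not whole, with 15.1% of its 50-base words shared with other genes. Glrx2, a mitochondrial and nuclear glutaredoxin, was lowest at 4.74, 5.52 and 5.72 FPKM.

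The genes for glutathione synthesis and recycling lay between 5.02 and 23.79 FPKM over all libraries. Gclc, the catalytic subunit of the rate-limiting glutamate-cysteine ligase, was at 21.3, 20.5 and 21.5 FPKM, and Gclm, its modifier subunit, at 16.28, 13.30 and 14.03. Gclc exceeded Gclm by 1.46 ± 0.13 times and did not overlap it. Gss, the synthetase that adds glycine, was at 5.02, 6.14 and 6.79 FPKM and thus the lowest of the pathway; its exons overlap Acss2 (4.42 ± 0.449 FPKM) on the opposite strand. Gsr, the reductase that regenerates glutathione, was at 23.8, 23.8 and 22.8 FPKM, 1.15 ± 0.058 times Txnrd1. In CPM the Gsr to Txnrd1 ratio was 0.885, so their order depends on length.

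Of the 21 cytosolic and mitochondrial glutathione transferases, enzymes that conjugate glutathione to electrophiles, 13 were detected. Gstp1, of the pi class (chromosome 19, 4035407 to 4037985), was highest at 86.8, 92.3 and 77.9 FPKM and did not overlap the next gene. Its neighbour Gstp2 was at 0.96, 1.91 and 1.12 FPKM, and 33.7% of the 50-base words of Gstp1 and 54.3% of those of Gstp2 occurred in other genes, mainly each other. Counts of both were not whole, and Gstp1 was given 98.5 ± 0.481% of their joint counts (SD, n = 3).

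Gstm5, Gsto1, Gstm1 and Gsta4 followed, at 45.0 ± 4.81, 42.4 ± 2.62, 39.8 ± 2.55 and 36.4 ± 1.16 FPKM, with overlap between each gene and the next. Gsto1 belongs to the omega class, which reduces dehydroascorbate, and Gsta4 conjugates the lipid peroxidation product hydroxynonenal. The Gstm genes lie together on chromosome 3 (107895821 to 108044894). Of the 7 measured, Gstm5, Gstm1, Gstm7, Gstm2 and Gstm4 were detected, Gstm6 was at 0.653 ± 0.0862 FPKM, and Gstm3 had no count. In Gstm1, 18.9% of 50-base words were shared, yet its counts were whole. In Gstm3 the share was 28.8%. Gstk1, the mitochondrial kappa form, varied more than its neighbours, with 13.3, 23.0 and 17.5 FPKM.

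Of the alpha class only Gsta4 was detected: Gsta1 and Gsta2, prominent in liver and gut, had no count, and Gsta3 had 7, 0 and 5. In Gsta1 90.5% and in Gsta2 49.8% of 50-base words were shared with other genes. How reads from such words were assigned was not examined. In the theta class, Gstt2 was at 5.98 ± 0.887, Gstt1 at 4.06 ± 1.13 and Gstt3 at 3.29 ± 0.846 FPKM, and Gstt4 had no count. The libraries of Gstt1 and Gstt3 overlapped, while Gstt2 was above both. Gsto2 was at 0.66 ± 0.195 FPKM.

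The microsomal transferases, membrane proteins of which Mgst1 and Mgst3 also reduce lipid peroxides, were all detected. Mgst1 was at 37.5, 40.0 and 41.1 FPKM and Mgst3 at 15.1, 20.4 and 23.5. Mgst2, which also takes part in leukotriene synthesis, was at 1.13, 4.99 and 1.19 FPKM from 6, 24 and 6 counts. Its detection in replicates 1 and 3 rested on those few reads and an effective length of 308 nt.

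Among the 3 regulatory and reporter genes, Nfe2l2 was far above Keap1 and Nqo1 in every library. Nfe2l2 (chromosome 2, 75675513 to 75704641) was at 110, 98.5 and 110 FPKM, mean 106 ± 6.59, and Keap1, the adaptor that marks NRF2 for degradation, at 12.6, 12.9 and 13.5. Their ratio was 8.72, 7.65 and 8.14. Nqo1, the quinone reductase often read as an NRF2 reporter, was at 6.36, 5.57 and 6.59 FPKM. In FPKM Nqo1 lay above Srxn1 and below Gclm in every library, but in CPM Nqo1 (7.84 ± 0.679) and Srxn1 (7.92 ± 1.08) overlapped. mRNA levels of Nfe2l2 do not report the amount of NRF2 protein, which is set mainly by degradation.

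**Figure D2:**
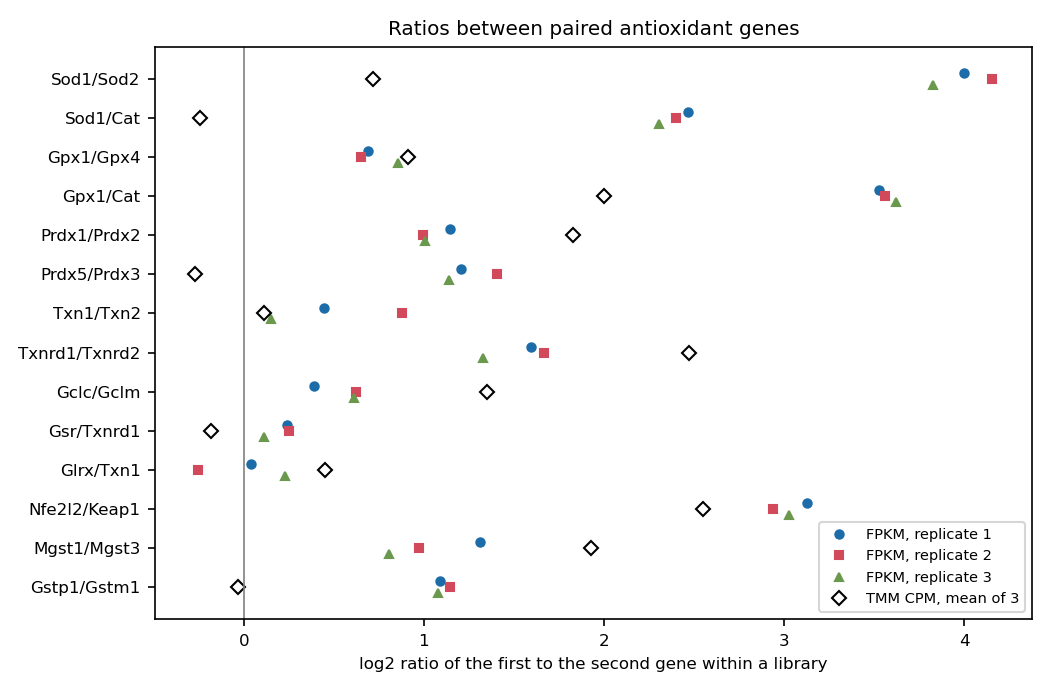
log2 ratio of FPKM between 14 pairs of members within each library (filled symbols) and the mean log2 ratio of TMM-normalised CPM (open diamonds). In FPKM the first gene is higher in every library for 13 pairs, the exception being Glrx/Txn1, and the diamonds of Sod1/Cat, Prdx5/Prdx3, Gsr/Txnrd1 and Gstp1/Gstm1 lie left of 0.

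Across 14 pairs chosen by role, the first gene was higher in FPKM in every library for 13. Which gene is written first is arbitrary, so this count shows only that the order repeated between libraries. Gpx1 was 1.66 ± 0.13 times Gpx4 and 11.9 ± 0.41 times Cat (SD, n = 3). Both relations had the same direction in CPM, at 1.88 and 4.01 times. Prdx1 was 2.07 ± 0.12 times Prdx2, and Nfe2l2 was 8.17 ± 0.53 times Keap1, with CPM ratios of 3.56 and 5.85. Prdx5 was 2.39 ± 0.23 times Prdx3 in FPKM but 0.834 times in CPM, and Gstp1 was 2.15 ± 0.055 times Gstm1 but 0.982 times in CPM. Glrx and Txn1 were not separated in FPKM, with ratios of 1.03, 0.84 and 1.17. In CPM Glrx was higher in every library, with a mean ratio of 1.38. No p is given for these ratios, because with 3 libraries the smallest value that exact sign flipping allows is 0.25 (two-sided).

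How far the members varied between libraries was examined next, on the counts. For each of 13246 genes a chi-square test asked whether counts were shared out in proportion to the effective library sizes, and p-values were adjusted by Benjamini-Hochberg over all of them at 0.05. Such a test compares libraries, not conditions. It called 29 of the 58 members that passed the filter on low counts (50%), and 41.4% of all genes that passed. Without replicate 2 it called 13 (22.4%, against 18.6% of all genes), without replicate 3 it called 14 (24.1% against 23.5%), and without replicate 1 it called 23 (39.7% against 28.2%). The differences were small: the median of the highest over the lowest CPM was 1.22 among the 29 members called, and it was at least 1.5 in 4 of them. These 4 were Gstk1 (1.73 times), Gstt3 (1.69), Glrx5 (1.61) and Mgst3 (1.55).

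Gpx4 had 165, 185 and 147 CPM in replicates 1, 2 and 3 (adjusted p = 2.8e-14, chi-square test with Benjamini-Hochberg adjustment). Txn1 had 38.5, 49.5 and 34.2 CPM (adjusted p = 1.06e-09), and Prdx6 58.2, 76.8 and 64.8 (adjusted p = 1.18e-08). All 3 genes were highest in replicate 2. All of Prdx1 to Prdx6 passed the test and were highest in replicate 2 as well, with highest-to-lowest CPM ratios from 1.11 (Prdx1) to 1.32 (Prdx6). In contrast Nfe2l2 was lowest in replicate 2, with 241, 216 and 240 CPM (adjusted p = 1.15e-05). Gclm was highest in replicate 1 and passed (adjusted p = 0.0218). Gss, Gsr, Gclc, Txnrd1, Keap1 and Nqo1 did not pass, with adjusted p of 0.0532, 0.632, 0.606, 0.474, 0.566 and 0.488.

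**Figure D3:**
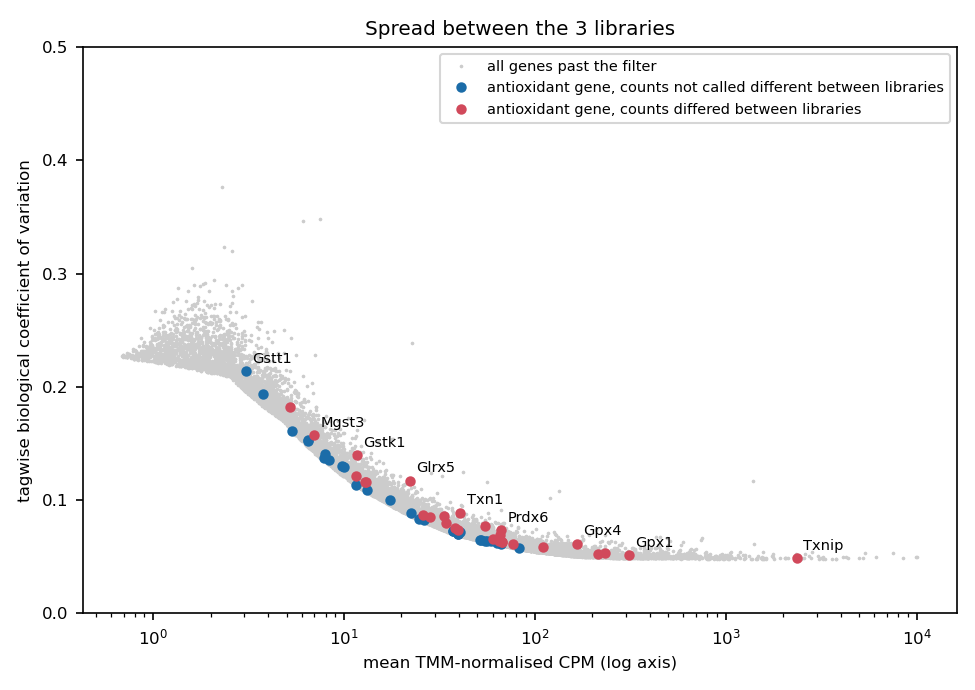
Tagwise biological coefficient of variation from edgeR against mean TMM-normalised CPM on a log axis, for all 13246 genes past the filter (grey) and the 58 members past it (red where counts differed between libraries, blue where not called). The members follow the grey trend, from 0.0485 at Txnip to 0.214 at Gstt1, with Glrx5, Gstk1 and Txn1 on its upper side.

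The biological coefficient of variation, the spread between libraries beyond counting error as edgeR estimates it, had a median of 0.0761 over the 58 members and 0.0866 over all genes tested. It was lowest for Txnip (0.0485) and highest for Gstt1 (0.214). Low-count members had the larger values, as did other genes of like abundance. Where only counting error was simulated, edgeR still gave a common coefficient of 0.0776, against 0.0827 for the libraries here. Values of this size therefore do not by themselves show spread beyond counting error.

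**Figure D4:**
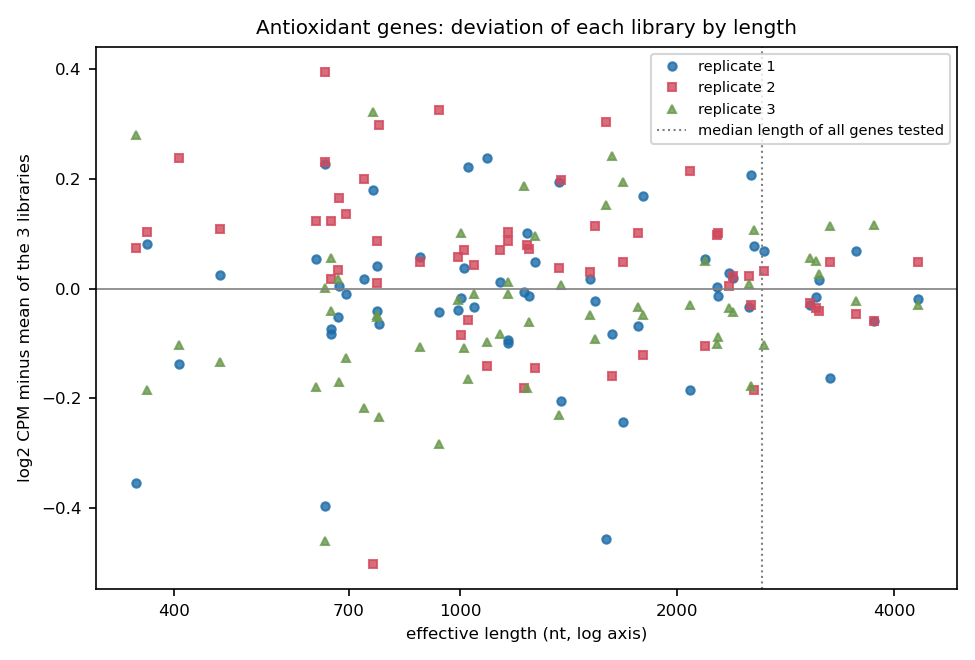
log2 CPM of each member past the filter minus its mean over the 3 libraries, against effective length on a log axis, with the median length of all genes tested (2620 nt, dotted). Squares of replicate 2 lie mostly above 0 for members shorter than the dotted line and near or below 0 beyond it.

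Length moved with this pattern. Of the members called, 20 of 29 were highest in replicate 2 (69%), compared with 37.9% of all genes called. Among members shorter than 2620 nt, the median effective length of all genes tested, 31 of 50 were highest in replicate 2 (62%), and among longer members 1 of 8 (12.5%). Over all genes tested the shares were 46.2% of shorter and 25.5% of longer genes. With a smooth trend on length removed from each library, an alternative chosen after seeing the data, 23 of 58 members were called (39.7%), 20 of them among the 29, beside 36.2% of all genes. What lies behind the length pattern was not tested.

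The reactions above depend on supplies of cystine, NADPH and selenium and on repair of oxidised proteins, for which 71 further genes were measured, 66 of them detected. Of the 69 past the count filter, 33 differed between libraries by the chi-square test, which called 41.4% of all genes. All 11 genes listed under NADPH supply were detected, at a median log2(FPKM + 1) of 5.69 ± 0.07. Not all of their enzymes form NADPH themselves: Taldo1 and Tkt, for example, do not. Taldo1, Pgd and Idh2 were highest, at 140.1 ± 2.72, 77.7 ± 6.01 and 72.5 ± 7.45 FPKM, and Me1 was lowest at 3.70 ± 0.855. G6pdx, which opens the pentose phosphate pathway, was at 34.2, 44.2 and 34.1 FPKM. Nnt, a mitochondrial source of NADPH whose gene carries a known deletion in C57BL/6J mice, still gave 13.62, 12.90 and 13.96 FPKM in gene-level counts, which do not show whether the deleted exons were read.

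**Figure D5:**
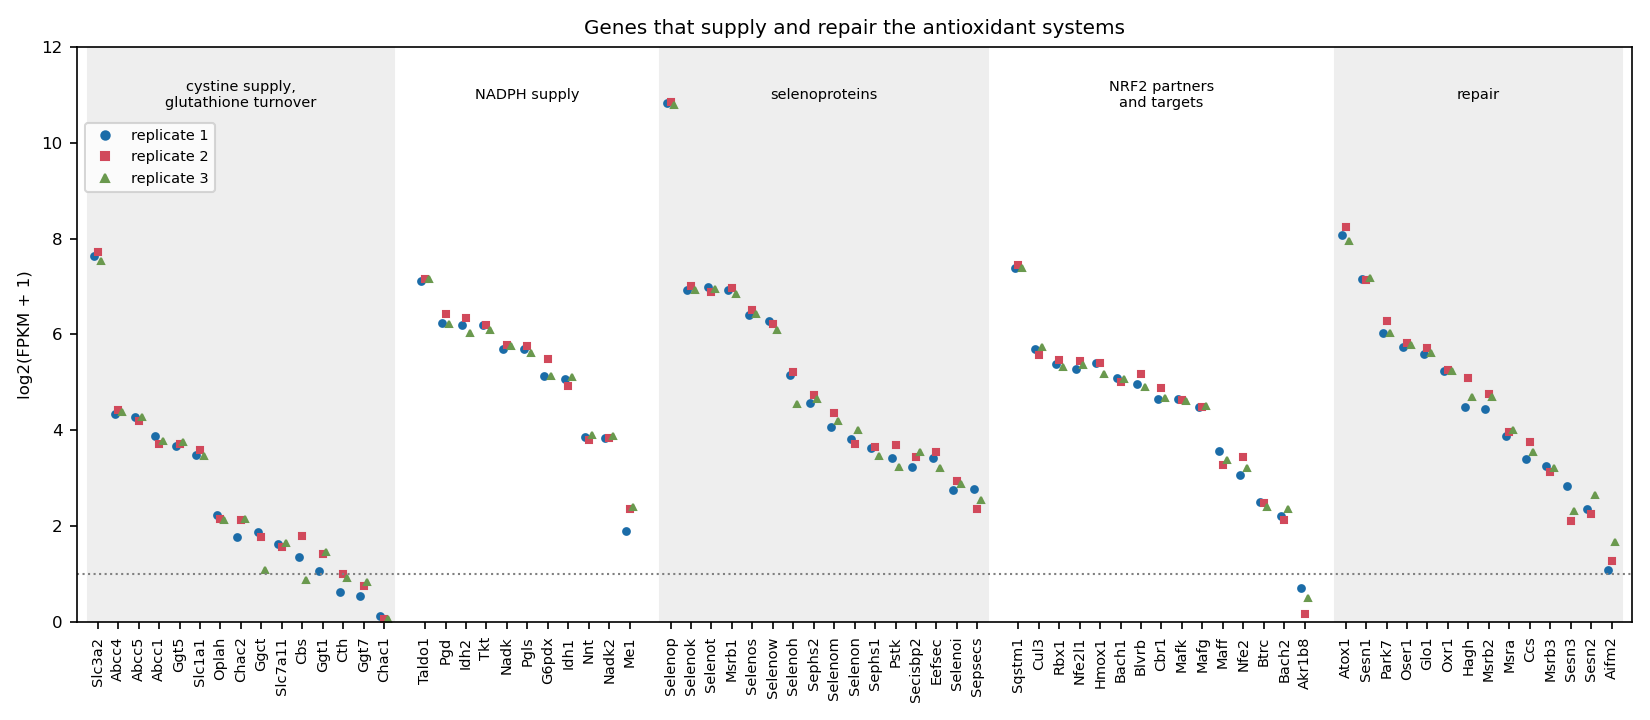
log2(FPKM + 1) in each library of 71 genes around the antioxidant enzymes, grouped by function, with the dotted line at an FPKM of 1. Selenop stands highest, Slc3a2 is far above its partner Slc7a11, and 5 genes (Cbs, Cth, Ggt7, Chac1 and Akr1b8) fall under the line in at least 1 library.

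The subunits of the cystine transporter differed widely in mRNA level, in FPKM, and the proteins were not measured. Slc7a11, the subunit that exchanges cystine for glutamate, was at 2.09, 1.95 and 2.13 FPKM, while its heavy chain Slc3a2, which serves other amino acid transporters as well, was at 197, 211 and 184. In the list of cystine supply and glutathione turnover 11 of 15 genes were detected, at a median level of 2.05 ± 0.14. After Slc3a2 came the exporters Abcc4 at 19.8 ± 0.589 FPKM and Abcc5 at 18.1 ± 0.64, and Chac1, which degrades glutathione, was lowest at 0.0633 ± 0.0231.

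All 16 genes measured for selenoprotein synthesis and further selenoproteins were detected. Selenop, the secreted selenium carrier, was at 1810, 1854 and 1779 FPKM, above all 74 members in each library. Selenok was at 124 ± 3.4 and Selenot at 122 ± 4.19 FPKM; both are proteins of the endoplasmic reticulum. The lowest was Sepsecs, the enzyme that forms selenocysteine on its transfer RNA, at 4.93 ± 0.852 FPKM. Of these 16 genes 9 stood in the table under an older name, and Selenof was not matched.

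Of 15 partners, regulators and further targets of NRF2, 14 were detected. Sqstm1, the autophagy receptor that binds KEAP1, was highest at 169 ± 4.04 FPKM, followed by Cul3, the ubiquitin ligase scaffold, at 50.1 ± 3.29, and Rbx1, its ring subunit, at 40.9 ± 2.11. Hmox1, the heme oxygenase repressed by BACH1, was at 41.1, 41.1 and 34.9 FPKM. Akr1b8, an aldo-keto reductase, was lowest at 0.39 ± 0.256. In the repair list all 14 genes were detected. They were led by the copper chaperone Atox1 at 273 ± 28.8 FPKM, the stress-induced Sesn1 at 142 ± 1.86 and Park7 at 68.8 ± 7.03. Aifm2, the quinone reductase that opposes ferroptosis, was lowest at 1.58 ± 0.557.

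The labelled cell type was checked against markers. All 12 microglial markers were detected, with a summed level of 14851 to 15485 FPKM. Markers of other cells were present too. All 12 of neutrophils were detected, at a summed level of 14233 to 15717 FPKM. Most of that sum came from S100a8 (8800 ± 567 FPKM) and S100a9 (4056 ± 210), while Mpo was lowest at 11.7 ± 1.47. The microglial list took 2.8 ± 0.036% of FPKM and the neutrophil list 2.71 ± 0.079%, while in counts they took 3.37 ± 0.048% and 0.352 ± 0.015%. Also detected were all 8 of ependyma and choroid plexus (6248 to 7129, mostly Ttr at 5690 ± 404) and all 9 of endothelium (2307 to 2478). So were all 8 each of monocytes, border macrophages, astrocytes and oligodendrocytes (294 to 749). Detected were 7 of 9 mural and fibroblast markers (252 to 279 FPKM), 3 of 8 neuronal (19.2 to 21.8, with Nefl at 0) and 3 of 7 lymphocyte markers (26.0 to 37.7). Replicate 2, in which most of the members called above were highest, also had the highest summed level of every marker list except 2: the mural and fibroblast list and the ependymal and choroid plexus list were highest in replicate 3. The sum of FPKM over all genes was likewise highest in replicate 2, at 560743 against 536963 and 529085. Their part in the level of any member, such as Sod3, Gpx3 or Gpx8, was not tested. In such bulk RNA, fewer cells of a type and less RNA per cell cannot be told apart.

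The promoter sequences of the members were examined for what the choice by symbol did not use. RefSeq windows of GRCm38.p6 from 250 bases before to 50 bases after the start matched 64 of the 74 genes, with 86 windows. The antioxidant response element core, TGACNNNGC on either strand, was present in 15.1% of these windows and in 12.4% of all 32851 windows. The ETS core GGAAGT, the kind of site to which Pu.1 and its relatives bind, was present in 23.3% and 23.8%, and the AP-1 motif TGANTCA in 9.3% and 7.81%. The longer TGANTCAGC, searched after the first results were seen, overlaps the AP-1 motif and, where its variable base is C, the response element core. It was found in 4 members, Prdx1, Srxn1, Gstp1 and Gstp2, in 4.65% of member windows and 1.19% of all windows. The neighbours Gstp1 and Gstp2 carried an identical stretch around the motif, so their matches are not independent. The stretches from 3 of these members are shown, with the motif in capitals and each read along the strand of its gene, because the genes range from among the highest to among the lowest detected.
Prdx1: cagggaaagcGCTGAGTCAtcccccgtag
Srxn1: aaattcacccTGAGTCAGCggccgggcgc
Gstp1: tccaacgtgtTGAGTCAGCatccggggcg
They lie at chr4:116685456-116685484 (plus strand, Prdx1), chr2:152105469-152105497 (plus strand, Srxn1) and chr19:4037968-4037996 (minus strand, Gstp1), with the motif beginning 133, 45 and 74 bases before the start. In Prdx1 the motif is on the opposite strand. The 3 genes were at 188, 3.13 and 85.6 FPKM, so members that hold these letters differed widely in level. A match describes the letters in the window and is no evidence of binding.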

How the data were processed

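RNA was sequenced from 3 libraries of 1 group. The authors deposited estimated counts per gene and FPKM per gene, 1 column per replicate, with 0 columns of other samples. The submitters' processing notes name the tools RSEM, STAR (2.7.9a) and DESeq2 and the builds GRCm38 and mm10. The annotation, read length, strand and settings are not given in the sources used here. RSEM divides reads between similar genes, and 4 of the 74 members had counts that were not whole (4.07% of all values in the deposited table). Counts were rounded, filtered with the default of edgeR 4.0.16 (R 4.3.3) and normalised by TMM, and dispersions were estimated with an intercept alone. The chi-square test was tested on simulated counts of 13246 genes. Genes to be changed were drawn only from those above a floor on mean count, so recovery at lower counts was not measured. Where only counting error was simulated, 82.1, 97 and 100% of the genes changed 1.5, 2 and 4 times in a single library were called, and 0.0613% of the others. Where biological spread of 0.1 was added, 47.6% of the others were called, so calls include ordinary spread between libraries. Effective length was recovered from count, FPKM and library total. Coordinates are 1-based, from GENCODE M21 (GRCm38). Shared sequence was the share of a gene's 50-base words found in transcripts of another gene. Codons of Gpx5 to Gpx8 were aligned by protein with Biopython 1.88.

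The members, role groups, pathway and marker lists were chosen with earlier results of these data known. Every member could be named, and at least the 3 highest, the lowest and those at 0 in each role group were; of each further list the 3 highest, the lowest and Hmox1, Slc7a11, Slc3a2, Nnt and G6pdx. Cbs, Cth and Ggt7 were named after their values were seen. Alternatives covered the detection threshold, pseudocount, unit, count filter, DESeq2 1.42.0 size factors and leaving out each replicate.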

Additional observations from a re-analysis of the deposited data

How the results depend on the processing

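The number of detected members was 62 at an FPKM of at least 0.1, 51 at 5 and 58 at 10 counts, against 59, and 59 to 60 with 1 replicate left out. The median level over all members, 4.04, was 3.96 with a pseudocount of 0.1, 4.65 with TMM-normalised CPM and 4.68 over detected members only. The share of the members was 0.516% in counts against 0.653% in FPKM. Without 1 replicate the level was 4.02 to 4.06 and the share 0.647 to 0.657% of FPKM. Leaving out 1 of 3 libraries cannot move their mean by 1 SD. These values, and those of the role groups, are therefore no test of stability. In CPM 9 of 14 pairs had the first gene higher in every library, against 13 in FPKM. The mean log2 ratio reversed to -0.24 for Sod1/Cat, -0.27 for Prdx5/Prdx3, -0.18 for Gsr/Txnrd1 and -0.03 for Gstp1/Gstm1. By construction CPM drops the length term. Over all measured members, peroxiredoxins ranked first of the 10 role groups and glutathione peroxidases last in both units, while glutaredoxins moved from rank 2 to 7. The last place rested on undetected members. With detected members only, glutathione peroxidases were at 4.83 in place of 2.32 in log2(FPKM + 1). The lowest group was then the cytosolic and mitochondrial glutathione transferases at 3.72. Members whose counts differed between libraries numbered 29 with DESeq2 size factors, 30 without the count filter (37.8% of all genes) and 13 to 23 with 1 replicate left out (18.6 to 28.2% of all genes), which leaves fewer samples. No paired analysis was possible because there was only 1 group. Depth limits the members under 1 FPKM, each resting on at most 14 counts a library.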
